A study of Mus musculus with 10 samples.

Results

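The 44 genes described here act in mitosis, the stage at which a cell separates its copied chromosomes and divides. They were taken by name from a list that covers entry into mitosis, the spindle checkpoint, the kinetochore, the spindle, cytokinesis, chromosome structure and the transcription factor Foxm1. A gene was kept where its normalised read count reached 10 in at least 2 libraries, and all 44 named genes did so, among 16290 genes in the deposited table and 15694 at that minimum. The RNA, selected for poly-A tails, came from mammary epithelial cells that had been isolated from glands of FVB mice with enzymes and short spins. There were 10 libraries of 4 genotypes. NIC had 2 libraries and is the background that every group shares, and the labels do not spell out the name. NIC-Prmt1 had 3 libraries, NIC-Carm1 had 3 and NIC-Prmt6 had 2, and each adds overexpression of a protein arginine methyltransferase (PRMT) to NIC. No group lacks NIC, so no comparison is made with normal gland. The promoter of each transgene, the age and sex of the mice, how far the glands had progressed to tumours and the number of animals behind a library are not stated in those labels. Nothing in them says that libraries came from separate animals, so the p-values measure the spread between these libraries, which may be technical.

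Cells enter mitosis when the kinase CDK1, bound to B-type cyclins, is switched on by CDC25 phosphatases with the help of Aurora and Polo kinases. Kinetochores then attach the chromosomes to spindle microtubules, and the spindle checkpoint holds back the anaphase-promoting complex (APC/C) until every chromosome is attached. CDC20 activates that complex, cyclin B and securin are degraded, and the cell is cleaved in cytokinesis. The genes for these proteins are transcribed late in the cell cycle, mostly through promoters with a cell cycle genes homology region (CHR) and CCAAT boxes, which bind the MuvB complex with B-MYB or FOXM1 and the factor NF-Y. Their transcripts are widely used as a measure of how many cells in a tissue are cycling, and they are low in resting mammary epithelium.

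Levels of the mitosis genes went together across the 10 libraries. The normalised read counts of the 44 genes summed to 18740 and 20390 in the NIC libraries. In NIC-Carm1 the sums were 28980, 27240 and 27620, above both. In NIC-Prmt6 they were 11310 and 11610, below both. NIC-Prmt1 was split, with 8503, 19820 and 10700 in replicates 1, 2 and 3. Replicate 2 of NIC-Prmt1 was thus between the NIC sums, replicate 3 just below NIC-Prmt6 and replicate 1 the lowest of all libraries. This split ran through the whole set, since replicate 2 had the highest value of its group for 44 of 44 genes and replicate 1 the lowest for 38. The median gene was 2.55-fold higher in replicate 2 than in replicate 1, from 1.23-fold for Smc2 to 5.5-fold for Ccnb2, and 1.9-fold higher than in replicate 3. Against the NIC libraries, replicate 2 was above both for 19 genes, below both for 15 and between them for 10, whereas replicate 1 was below both for 43 and replicate 3 for 42. The 3 NIC-Carm1 libraries were above both NIC libraries for 42, 40 and 43 genes, and the 2 NIC-Prmt6 libraries were below both for 41 and 42. For 41 genes the mean of NIC-Carm1 was the highest and that of NIC the next, with both other groups below. The highest library was one of NIC-Carm1 for 43 genes. These counts by library and by order of means were not made over all genes tested, so no background share stands beside them. For whole groups, 23.4% of all genes were higher in NIC-Carm1 than in NIC without overlap, and 38.6% were lower in NIC-Prmt6. Within groups the median coefficient of variation over the 44 genes was 51.2% in NIC-Prmt1, against 7.29% in NIC, 5.54% in NIC-Carm1 and 5.91% in NIC-Prmt6.

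**Figure D1:**
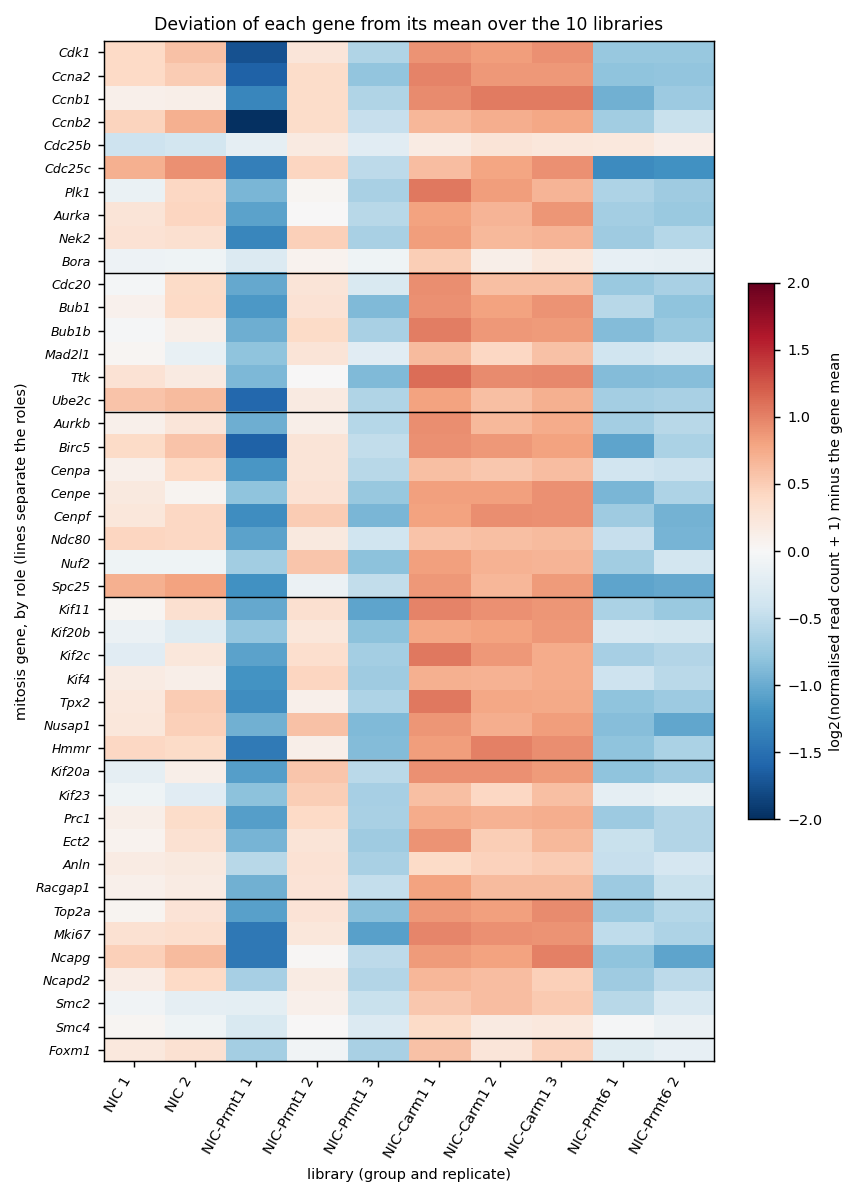
Deviation of each of the 44 mitosis genes (rows, by role) from its own mean over the 10 libraries (columns, by group and replicate), on a log2 scale of normalised read count + 1. Nearly all rows are high in the 3 NIC-Carm1 libraries and low in the 2 NIC-Prmt6 libraries and in NIC-Prmt1 replicates 1 and 3, while NIC-Prmt1 replicate 2 lies close to NIC; Cdc25b, Bora and Smc4 vary least.

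Across all libraries the highest value of a gene was 3.94 times its lowest at the median. The widest range was that of Ccnb2, a B-type cyclin, at 7.34-fold. The narrowest was that of the phosphatase gene Cdc25b, at 1.59-fold, and 3 genes stayed under 2-fold (Cdc25b, Smc4 and Bora). The lowest count of reads behind any value was 35, for Cdc25c, so counting error is small against the differences between groups. Per kilobase of exon, the mean normalised read count over the libraries was highest for Cdc20 (318), Mki67 (249.5), Ccnb2 (233) and Smc4 (226), and lowest for Nuf2 (17.5) and Ndc80 (18.8), a pair whose proteins bind each other in the kinetochore. The 44 genes lie on 17 chromosomes, and all are annotated as protein coding. Exons of 11 overlap those of another coding gene, among them Kif20a with Cdc23 over 977 bases and Ncapg with Lcorl over 699. The library kit does not mark strand, and how reads in such shared bases were assigned is not stated.

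RefSeq promoters (mouse build GRCm38.p6, 250 bases before to 50 after a transcript start) were found by symbol for 36 of the 44 genes, with 38 starts between them. The CHR core TTTGAA, sought on both strands, occurred in 29 of the 38 windows (76.3%). It occurred in 12.3% of the 14866 windows of all genes tested and in 17.9% of all 32851 windows in the table. CCAAT occurred in 78.9% of the windows of mitosis genes and in 36.9% of those of all genes tested. CCAAT together with TTTGAA or the variant TTCGAA occurred in 71.1% and in 5.62%. In the windows of genes for DNA replication, TTTGAA was found in 12.5% and CCAAT in 57.5%, and in those of a list of further mitosis genes in 41.8% and 63.3%. The E2F motifs TTTCCCGC and TTTGGCGC were rarer, each in 2.63% of the windows of the 44 genes and in 15% and 17.5% of those of replication genes. These are matches of letters in a fixed window, not sites of binding. Each motif was counted by itself, and a base may belong to matches of more than 1 motif. The 120 bases before the start are shown for 6 of the genes, with TTTGAA and CCAAT on either strand in capitals (TTCAAA and ATTGG are their reverse complements). The first 5 are examples with a CHR core in this stretch, with or without CCAAT. Their arrangement is not that of all 44 genes, since in Plk1 and Aurka, for example, TTTGAA lies after the start. Cdc25b, the gene with the narrowest range, is shown beside them. Whether these motifs go with the range of a gene was not tested. Cdk1, with TTTGAA and CCAAT in its window, ranged 6.39-fold, and Smc2, also with both, 2.26-fold. Ccnb1, with CCAAT and no TTTGAA, ranged 5.13-fold.
Cdk1: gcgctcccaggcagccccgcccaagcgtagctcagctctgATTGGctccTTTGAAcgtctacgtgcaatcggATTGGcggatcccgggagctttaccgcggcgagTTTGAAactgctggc
Cdc20: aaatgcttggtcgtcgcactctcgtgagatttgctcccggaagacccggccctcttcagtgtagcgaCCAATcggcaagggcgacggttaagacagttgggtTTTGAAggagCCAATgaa
Kif11: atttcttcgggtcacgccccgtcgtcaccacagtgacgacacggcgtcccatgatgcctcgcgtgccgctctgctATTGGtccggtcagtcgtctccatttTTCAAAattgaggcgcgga
Ncapg: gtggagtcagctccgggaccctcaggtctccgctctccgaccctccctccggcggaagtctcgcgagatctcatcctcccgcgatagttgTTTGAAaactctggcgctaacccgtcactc
Top2a: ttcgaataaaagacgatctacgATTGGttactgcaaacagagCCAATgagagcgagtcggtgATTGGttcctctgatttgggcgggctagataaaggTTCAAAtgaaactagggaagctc
Cdc25b: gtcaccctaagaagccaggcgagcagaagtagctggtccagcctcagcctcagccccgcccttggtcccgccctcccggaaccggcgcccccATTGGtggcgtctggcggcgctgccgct
In that order these stretches lie at chr10:69352913-69353032 (minus strand), chr4:118437344-118437463 (minus strand), chr19:37376262-37376381 (plus strand), chr5:45669805-45669924 (plus strand), chr11:99024190-99024309 (minus strand) and chr2:131186828-131186947 (plus strand). In the stretches shown, Cdk1 has a pair of CHR cores and a pair of CCAAT boxes, Top2a has 3 CCAAT boxes, and Ncapg has a CHR core alone. Beyond the stretches, the windows hold CCAAT also at -176 from the start in Ncapg and at -208 in Cdk1. That of Top2a holds further matches of both motifs. Cdc25b has a CCAAT box and no TTTGAA in the stretch shown. Its window does hold the variant TTCGAA, which begins 8 bases into the transcript, beyond the printed stretch.

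Each library held from 21589274 to 30260921 reads in genes. Of the targeted genes, Prmt6 matched its label, with a mean normalised read count of 891 in NIC-Prmt6 and 419 in NIC (log2 fold change 1.09 ± 0.20, limma adjusted p = 0.00321). Carm1 was at 2316 in NIC-Carm1 and 1562 in NIC (0.57 ± 0.09, limma adjusted p = 0.0049), and it was also above NIC in NIC-Prmt1 (2155) and in NIC-Prmt6 (2363). Prmt1 was at 2975 in the libraries labelled NIC-Prmt1 and 2876 in NIC (0.05 ± 0.12, limma adjusted p = 0.784), so its level does not check that label. Whether the counting would assign transgene reads to these genes is not stated in the labels. Libraries were nearly alike in NIC-Prmt6 and in replicates 2 and 3 of NIC-Carm1. A chi-square of their counts over its degrees of freedom was 2.46 and 2.69, against 29.5 to 109 for other replicate pairs. Sampling noise alone would give about 1. Over the mitosis genes the same ratio was 1.78 for the NIC-Prmt6 pair and 1.30 for the NIC-Carm1 pair. Whether the libraries of a pair were repeats of 1 sample was not tested, and these ratios do not show that they were separate samples. Each pair stayed as 2 libraries in the main fit, whose p-values are too small if they were repeats. The counts with each pair averaged into 1 library are given beside the results.

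Markers of the labelled cell type were abundant in every library. The summed level of 10 luminal epithelial genes was 6021 to 11610 CPM (reads of a gene scaled to a common library size). It was highest in NIC, at 11610 and 9410. It was 6472 to 9081 in NIC-Prmt1, 6021 to 7170 in NIC-Carm1, and 6047 and 6067 in NIC-Prmt6. Genes of other cells were also present and differed between libraries. Skin keratinocyte genes (6 of 7 in the table) reached a sum of 774 CPM in replicate 1 of NIC-Prmt1 and of 80.4 in replicate 3. They were at 3.92 in replicate 2 and at 1.65 to 4.45 elsewhere. Mitosis genes were low in those 2 NIC-Prmt1 libraries. They were also low in NIC-Prmt6, where the skin genes were at 1.75 and 1.65 CPM. B and T lymphocyte genes (9 of 9) summed to 60.5 and 10.7 CPM in NIC, to 8.62, 59.2 and 8.8 in NIC-Prmt1, to 31.9 to 41.4 in NIC-Carm1 and to 11.3 to 12.1 in NIC-Prmt6. Their sums were highest in NIC replicate 1 and NIC-Prmt1 replicate 2, and whether they go with the levels of the mitosis genes was not tested. Fibroblast and pericyte genes (8 of 8) summed to 11230 and 11270 CPM in NIC-Prmt6, to 4696 to 6488 in NIC-Prmt1, to 2914 to 3571 in NIC and to 3325 to 3816 in NIC-Carm1. Endothelial genes (8 of 8) ranged from 1125 to 1611 CPM in NIC and NIC-Carm1 and from 2372 to 3404 in the other groups. Adipocyte genes (5 of 5) were likewise at 251 to 365 CPM in NIC and NIC-Carm1 and at 612 to 1126 in the other groups. Basal and myoepithelial genes (8 of 8) were at 2992 to 5406 CPM in NIC-Prmt1 and at 1293 to 1819 elsewhere. Luminal progenitor and alveolar genes (7 of 7) reached 23470 CPM in NIC-Carm1 replicate 1 and lay between 1571 and 6139 in the other libraries. Macrophage and dendritic cell genes (9 of 10) lay between 362 and 825 CPM. Mast cell genes (5 of 5) were at 5.23 and 12 CPM in NIC and at 172 and 173 in NIC-Prmt6. They were at 49.6 to 114 in NIC-Prmt1 and at 39.6 to 103.5 in NIC-Carm1. Of the erythroid list only Alas2 was in the table, at 3.83 to 8.76 CPM. Single markers were at 0 in 1 library each, namely Ms4a1 (a B cell gene) and Lor, Krt25 and Krt77 (skin genes) and Ms4a2 (a mast cell gene). The part of these cells in the levels of the mitosis genes was not tested. In bulk RNA of this kind, fewer dividing cells and less RNA of these genes per cell cannot be told apart.

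The 6 comparisons between the groups were each tested over 15694 genes, and a gene was called where limma's adjusted p was below 0.05. Against NIC, the libraries labelled NIC-Prmt1 had 10 of 44 mitosis genes lower and none higher (22.7% called, where 29.6% of all genes tested were called and 14.4% were called lower). The median log2 fold change of the 44 was -0.71, against -0.0037 for all genes. The groups did not overlap, with NIC-Prmt1 lower, for 15 genes, a share of 34.1% beside 27.1% of all genes tested. The share called in either direction was thus below that of all genes, and the share called lower was above it. Lower were Cdc25c, Aurka, Ttk, Ube2c, Spc25, Tpx2, Hmmr, Ncapg, Mki67 and Foxm1. At an unadjusted p below 0.05 there were 23 of the 44 genes, beside 6727 of the 15694 tested. Over 21 alternative settings the call held in all for Spc25, in 17 for Ncapg, 15 for Ube2c, 14 for Foxm1, 12 for Aurka, 11 for Hmmr and 10 for Cdc25c. It held in 8 for Tpx2 and Ttk, both lost with edgeR, and in 5 for Mki67, lost with edgeR, DESeq2 and both other scalings. The count hung on NIC-Prmt1 replicate 2: without it 39 genes were lower, beside 32.1% of all genes called. It was 3 without replicate 1 (22.2% of all genes called), 2 without replicate 3 (26%) and 1 without NIC replicate 1 or 2 (16.5% and 14.5%). It was 6 without NIC-Carm1 replicate 2 or 3 (25.6% each), 4 without NIC-Prmt6 replicate 1 or 2 (22.9% and 23%), and 1 with the nearly alike libraries averaged (16.7%).

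NIC-Carm1 had 3 mitosis genes higher than NIC and none lower (6.82% called, where 16% of all genes tested were called and 6.65% were called higher). They were Cdc25b, Kif20b and Smc2. The share of members called higher was close to that of all genes. The 44 genes nonetheless had a median log2 fold change of 0.53, beside 0.0034 for all genes, and 43 of the 44 had a positive one. For 39 of them the groups did not overlap, with NIC-Carm1 higher (88.6%, beside 23.4% of all genes tested). At an unadjusted p below 0.05 there were 15 of the 44 genes, beside 4994 of the 15694 tested. The count was 0 without NIC replicate 1 or 2 (4.53% and 8.72% of all genes called), without NIC-Carm1 replicate 2 or 3 (6.73% and 6.88%) and with nearly alike libraries averaged (2.19%). It was 7 without NIC-Prmt1 replicate 1 (20.5%) and 19 without NIC-Prmt1 replicate 2 (16.6%). It was 19 when NIC and NIC-Carm1 were fitted without the other groups, beside 10.5% of all genes.

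In NIC-Prmt6, 13 mitosis genes were lower than in NIC and 1, Cdc25b, was higher (31.8% called, where 36.8% of all genes tested were called). The share called lower was 29.5%, beside 17.8% of all genes. The median log2 fold change was -0.88, beside -0.011 for all genes, and 43 of 44 values were negative. The groups did not overlap, with NIC-Prmt6 lower, for 41 genes (93.2%, beside 38.6% of all genes tested). Lower were Cdc25c, Aurka, Ttk, Ube2c, Birc5, Cenpe, Ndc80, Spc25, Tpx2, Nusap1, Hmmr, Ncapg and Ncapd2. The count of 14 was 1 with nearly alike libraries averaged (10.7% of all genes called), 3 and 2 without NIC-Prmt6 replicates 1 and 2 (17% and 17.6%), and 6 and 2 without NIC replicates 1 and 2 (29.7% and 21%). It was 27 and 35 without NIC-Prmt1 replicates 1 and 2 (41.1% and 38.1%). These values all come from a spread that the groups share, to which the widely spread NIC-Prmt1 libraries contribute.

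**Figure D2:**
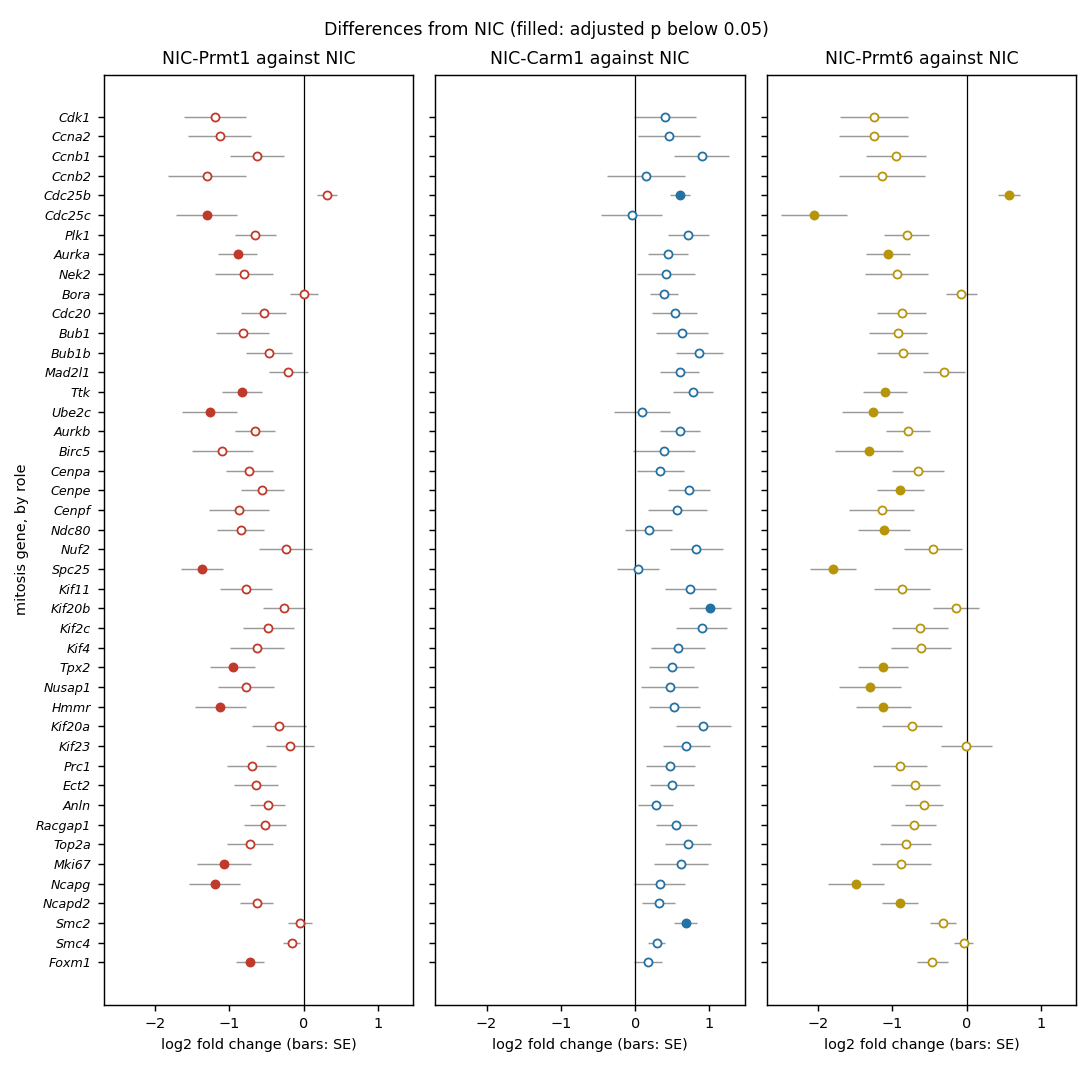
Log2 fold change of each mitosis gene (rows, by role) in NIC-Prmt1, NIC-Carm1 and NIC-Prmt6 against NIC, with its standard error as a bar; filled points passed an adjusted p of 0.05. Values lie left of 0 for 42 of 44 genes in NIC-Prmt1 and 43 in NIC-Prmt6 and right of 0 for 43 in NIC-Carm1, with 10, 14 and 3 filled points respectively.

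The clearest differences lay between the PRMT groups. The libraries labelled NIC-Prmt1 were lower than NIC-Carm1 for 42 of 44 genes (95.5% called, where 26.8% of all genes tested were called and 11.8% were called lower), at a median log2 fold change of -1.27. The groups did not overlap for 42 genes, beside 21% of all genes lower without overlap. Only Cdc25b and Bora missed the threshold. The smallest adjusted p-values were those of Ttk, at -1.61 ± 0.24 (SE; limma adjusted p = 0.00254), Aurka, at -1.33 ± 0.24 (SE; limma adjusted p = 0.00457), Spc25, at -1.40 ± 0.25 (SE; limma adjusted p = 0.00457), and Plk1, at -1.37 ± 0.25 (SE; limma adjusted p = 0.00491). The count was 27 without NIC-Prmt1 replicate 3 (18.7% of all genes called) and 16 with the nearly alike NIC-Carm1 and NIC-Prmt6 libraries averaged, beside 8.76% of all genes. NIC-Carm1 was higher than NIC-Prmt6 for 40 genes and lower for none (90.9% called, where 39.2% of all genes tested were called and 18.4% were called higher), at a median of 1.45. For 43 genes the groups did not overlap, beside 34.6% of all genes higher without overlap. Not called were Ccnb2, Cdc25b, Kif23 and Bora. Ttk led here too, at 1.87 ± 0.27 (SE; limma adjusted p = 0.000847), followed by Spc25, at 1.83 ± 0.28 (SE; limma adjusted p = 0.00108), Smc2, at 0.99 ± 0.16 (SE; limma adjusted p = 0.00133), and Aurka, at 1.50 ± 0.27 (SE; limma adjusted p = 0.00222). This count was 21 without NIC-Prmt6 replicate 1 or 2 (16.4% and 17.1% of all genes called) and 3 with nearly alike libraries averaged, beside 8.1% of all genes.

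Between NIC-Prmt1 and NIC-Prmt6, 7.49% of all genes tested were called, and 4019 of the 15694 had an unadjusted p below 0.05. No mitosis gene was called by limma there, and none had an unadjusted p below 0.05. edgeR and DESeq2 on the recovered reads called none either. The median log2 fold change was 0.15, and the values ran from -0.26 for Foxm1 to 0.75 for Cdc25c. The smallest adjusted p-values were those of Cdc25c, at 0.75 ± 0.41 (SE; limma adjusted p = 0.274), Cdc25b, at -0.25 ± 0.14 (SE; limma adjusted p = 0.281), Smc2, at 0.26 ± 0.16 (SE; limma adjusted p = 0.324), and Spc25, at 0.43 ± 0.28 (SE; limma adjusted p = 0.359). The median standard error of these values was 0.32. The direction depended on which NIC-Prmt1 library was used. Without replicate 1 the median was 0.43 and 2 genes were called, both higher in NIC-Prmt1 (14.4% of all genes called). Without replicate 2 the median was -0.22 and 1 gene was called, lower in NIC-Prmt1 (5.99%).

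Among the genes for CDK1 and its regulators (10 genes), 2 fell in NIC-Prmt1, 1 rose in NIC-Carm1, and 2 fell and 1 rose in NIC-Prmt6, all against NIC. Beside this role and those below, 29.6%, 16% and 36.8% of all genes tested were called in these 3 comparisons. Cdk1, the kinase itself, had normalised read counts of 580.2 and 659 in NIC, 131, 520 and 289 in NIC-Prmt1, 823, 791 and 834 in NIC-Carm1, and 259 and 261 in NIC-Prmt6. The NIC-Carm1 libraries lay above all others, and NIC-Prmt1 spanned the range from below NIC-Prmt6 to near NIC. Its mean was 619.7 ± 55.9 (SD, n = 2) for NIC and 313 ± 196 (SD, n = 3) for the libraries labelled NIC-Prmt1. NIC-Carm1 averaged 816 ± 22.3 (SD, n = 3), and the mean of NIC-Prmt6 was 259.8 ± 1.15 (SD, n = 2). Cdk1 missed the threshold in each comparison with NIC, with adjusted p-values from limma of 0.0562, 0.556 and 0.0567, and passed it between NIC-Carm1 and NIC-Prmt6 at a log2 fold change of 1.65 ± 0.42 (SE; limma adjusted p = 0.0125). Ccna2, a cyclin active from replication to early mitosis, ran in parallel at 626 and 672 in NIC, 154, 614 and 274 in NIC-Prmt1, 944, 869 and 864 in NIC-Carm1, and 269.9 and 274 in NIC-Prmt6. Ccnb1, whose protein is the main partner of CDK1 in mitosis, was at 287 and 289.9 in NIC, 107, 346 and 176 in NIC-Prmt1, 517, 549 and 548 in NIC-Carm1, and 137 and 161 in NIC-Prmt6. For both cyclins the NIC-Carm1 libraries stood above every other library, and neither was called against NIC.

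Cdc25c, a phosphatase that activates CDK1, had 159.7 and 185 in NIC, 37.1, 131 and 67.2 in NIC-Prmt1, 149, 169 and 183 in NIC-Carm1, and 39.8 and 41.3 in NIC-Prmt6. Its NIC and NIC-Carm1 values overlapped, unlike those of most mitosis genes. It fell in NIC-Prmt1, at a log2 fold change of -1.30 ± 0.41 (SE; limma adjusted p = 0.0366), and in NIC-Prmt6, at -2.06 ± 0.45 (SE; limma adjusted p = 0.00626), the latter being the largest change of the 44 genes against NIC. Its gene shares exon bases with a predicted gene on the other strand. Cdc25b, a related phosphatase that acts at the start of mitosis, went another way, at 309 and 319.8 in NIC, 366, 466 and 353 in NIC-Prmt1, 463, 493 and 485 in NIC-Carm1, and 479.9 and 451 in NIC-Prmt6. All 8 PRMT libraries were above both NIC libraries. It rose in NIC-Carm1, at a log2 fold change of 0.61 ± 0.14 (SE; limma adjusted p = 0.0165), and in NIC-Prmt6, at 0.56 ± 0.15 (SE; limma adjusted p = 0.0149), and was at 0.32 ± 0.14 (SE; limma adjusted p = 0.101) in NIC-Prmt1.

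Aurka encodes Aurora A, a kinase of centrosomes and spindle poles, and was read at 199 and 225 in NIC, 78.5, 168 and 113 in NIC-Prmt1, 291, 268 and 308 in NIC-Carm1, and 103 and 98.9 in NIC-Prmt6. Both NIC libraries lay above all NIC-Prmt1 and NIC-Prmt6 libraries and below all NIC-Carm1 libraries. It fell in NIC-Prmt1, at -0.89 ± 0.27 (SE; limma adjusted p = 0.0315), and in NIC-Prmt6, at -1.06 ± 0.29 (SE; limma adjusted p = 0.0177), and was at 0.44 ± 0.27 (SE; limma adjusted p = 0.284) in NIC-Carm1. Plk1, the Polo kinase, had 164 and 242 in NIC, 95.5, 185 and 115 in NIC-Prmt1, 377, 322 and 290 in NIC-Carm1, and 118 and 110.1 in NIC-Prmt6. The NIC libraries differed most for this gene, and no comparison of Plk1 with NIC was called (adjusted p-values from limma of 0.1, 0.107 and 0.0615). Bora, whose protein helps Aurora A activate Plk1, moved little, with all values between 89.1 and 153.

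Of the 6 genes of the spindle checkpoint and the APC/C, 2 fell in NIC-Prmt1 and 2 in NIC-Prmt6, and none was called in NIC-Carm1. The genes were Ttk and Ube2c in each case. Ttk, the MPS1 kinase that starts checkpoint signalling, had 113 and 104 in NIC, 48.8, 92.2 and 49.6 in NIC-Prmt1, 202, 179 and 180.4 in NIC-Carm1, and 49.8 and 50.8 in NIC-Prmt6. Every NIC-Carm1 value was above every other value, and its log2 fold changes were -0.83 ± 0.27 (SE; limma adjusted p = 0.0442) in NIC-Prmt1, -1.10 ± 0.30 (SE; limma adjusted p = 0.0172) in NIC-Prmt6 and 0.78 ± 0.27 (SE; limma adjusted p = 0.0803) in NIC-Carm1. Ube2c, the ubiquitin-conjugating enzyme of the APC/C, had 523 and 544 in NIC, 118, 399 and 229 in NIC-Prmt1, 611, 531 and 571 in NIC-Carm1, and 218 and 224 in NIC-Prmt6. NIC and NIC-Carm1 overlapped for this gene, and Ube2c fell in NIC-Prmt1, at -1.27 ± 0.38 (SE; limma adjusted p = 0.0304), and in NIC-Prmt6, at -1.27 ± 0.41 (SE; limma adjusted p = 0.0353).

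Cdc20, the APC/C activator whose promoter is shown above, was at 528 and 711 in NIC, 265, 646 and 437 in NIC-Prmt1, 1035, 822 and 823 in NIC-Carm1, and 325 and 344 in NIC-Prmt6. NIC-Prmt1 replicate 2 lay between the NIC libraries, and NIC-Prmt6 lay under both. No comparison of Cdc20 with NIC was called, with adjusted p-values from limma of 0.199, 0.257 and 0.0626. Bub1, a checkpoint kinase at kinetochores, was at 129 and 159 in NIC, 54.1, 147 and 65.1 in NIC-Prmt1, 228, 212 and 225 in NIC-Carm1, and 81.5 and 68.8 in NIC-Prmt6. NIC-Carm1 was again highest and NIC-Prmt1 replicate 2 lay between the NIC libraries, and Bub1 was called in neither comparison of NIC with NIC-Prmt1 or NIC-Prmt6 (limma adjusted p = 0.105 and 0.0879) but was higher in NIC-Carm1 than in NIC-Prmt6, at 1.55 ± 0.35 (SE; limma adjusted p = 0.00752). Bub1b and Mad2l1, further checkpoint genes, spanned 163 to 656 and 122 to 332.

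Kinetochore and chromosomal passenger genes (8) had 1 fall in NIC-Prmt1 and 4 in NIC-Prmt6. Spc25, a subunit of the NDC80 complex that grips microtubules, was called in both and was the only mitosis gene called in both comparisons under all 21 alternative settings. Its normalised read counts were 198 and 209 in NIC, 50.9, 111 and 84.7 in NIC-Prmt1, 219.6, 190 and 217 in NIC-Carm1, and 57 and 58.5 in NIC-Prmt6. NIC and NIC-Carm1 overlapped, and all libraries of NIC-Prmt1 and NIC-Prmt6 lay below them. The log2 fold changes were -1.37 ± 0.28 (SE; limma adjusted p = 0.00687) in NIC-Prmt1, -1.80 ± 0.31 (SE; limma adjusted p = 0.00204) in NIC-Prmt6 and 0.04 ± 0.28 (SE; limma adjusted p = 0.948) in NIC-Carm1. Ndc80, another subunit of that complex, was at 151 and 149.5 in NIC, 53, 128 and 84.7 in NIC-Prmt1, 168, 171 and 175 in NIC-Carm1, and 81.5 and 58.5 in NIC-Prmt6, and fell in NIC-Prmt6, at -1.11 ± 0.35 (SE; limma adjusted p = 0.0299). Nuf2, its partner, was not called against NIC, and its highest NIC-Prmt1 library exceeded both NIC libraries.

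Cenpe, a motor that carries chromosomes along microtubules, had 324 and 293 in NIC, 160.2, 344 and 166 in NIC-Prmt1, 496, 500 and 531 in NIC-Carm1, and 149 and 183 in NIC-Prmt6. It fell in NIC-Prmt6, at -0.89 ± 0.31 (SE; limma adjusted p = 0.0469), and NIC-Prmt1 replicate 2 was above NIC. Birc5, which encodes the passenger protein survivin, had 321 and 365 in NIC, 79.6, 294 and 175 in NIC-Prmt1, 464, 452 and 429 in NIC-Carm1, and 118 and 159 in NIC-Prmt6. It too fell in NIC-Prmt6, at -1.32 ± 0.45 (SE; limma adjusted p = 0.0442), with its lowest value in NIC-Prmt1 replicate 1. Aurkb, the kinase of the passenger complex, was at 209.8 and 233 in NIC, 98.7, 213 and 131 in NIC-Prmt1, 375, 308 and 329.7 in NIC-Carm1, and 122 and 133 in NIC-Prmt6, and was called against NIC in no group (adjusted p-values from limma of 0.0941, 0.156 and 0.0612). Cenpf, a kinetochore protein of late cell cycle, reached 551 in NIC-Prmt1 replicate 2 and 162 in replicate 1, beside 200.4 to 235 in NIC-Prmt6 and 449 to 515 in NIC.

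**Figure D3:**
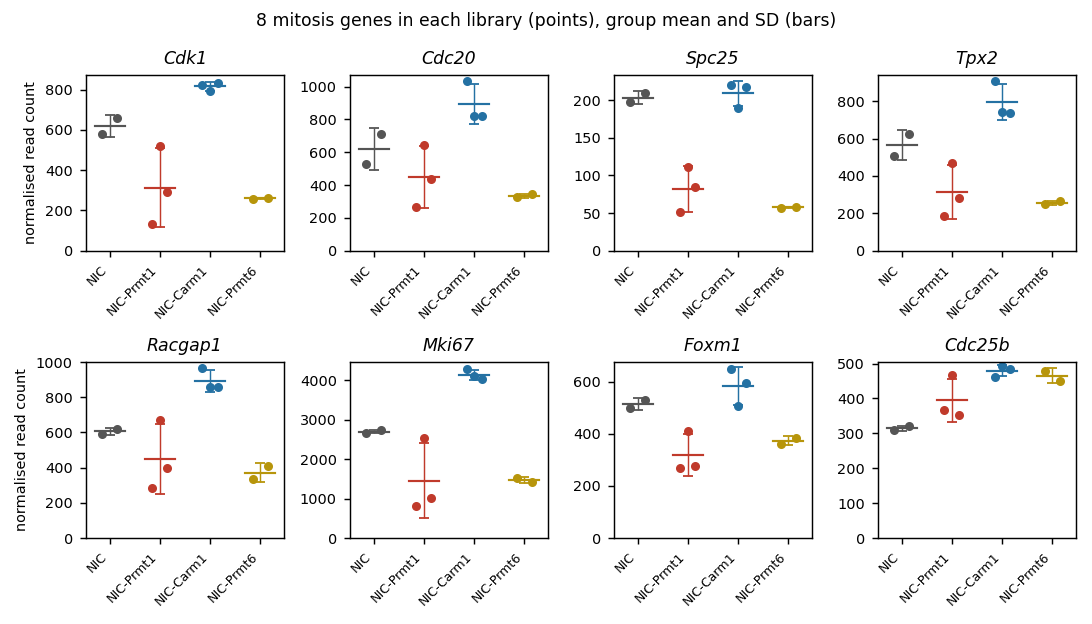
Normalised read counts of 8 mitosis genes in each library (points) by group, with the group mean as a line and the SD as a bar; the axes start at 0. Cdk1, Cdc20, Tpx2, Racgap1 and Mki67 are highest in NIC-Carm1 and lowest in NIC-Prmt6 and 2 of the 3 NIC-Prmt1 libraries, Spc25 is alike in NIC and NIC-Carm1, and Cdc25b is lowest in NIC.

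The spindle genes (7) had 2 falls in NIC-Prmt1, 3 in NIC-Prmt6 and 1 rise in NIC-Carm1. Tpx2, which activates Aurora A and starts microtubules near chromosomes, had 508 and 624 in NIC, 184, 468 and 284 in NIC-Prmt1, 906, 744 and 739 in NIC-Carm1, and 249 and 265 in NIC-Prmt6. It fell in NIC-Prmt1, at -0.95 ± 0.31 (SE; limma adjusted p = 0.0403), and in NIC-Prmt6, at -1.13 ± 0.34 (SE; limma adjusted p = 0.0247), while the NIC-Carm1 libraries were the 3 highest. Hmmr, a spindle protein that works with Tpx2, had 392 and 382 in NIC, 109, 319 and 160.2 in NIC-Prmt1, 525, 591 and 561 in NIC-Carm1, and 168 and 188 in NIC-Prmt6. Its falls were of like size, at -1.12 ± 0.34 (SE; limma adjusted p = 0.0331) and -1.12 ± 0.37 (SE; limma adjusted p = 0.0388). Nusap1, which bundles spindle microtubules, fell in NIC-Prmt6 at -1.30 ± 0.42 (SE; limma adjusted p = 0.0335), and in NIC-Prmt1 its replicate 2 (358) was above both NIC libraries while replicates 1 and 3 were at 123 and 129.

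Kif20b, a kinesin of the late spindle and midbody, was read at 144 and 130 in NIC, 91.2, 182 and 87.8 in NIC-Prmt1, 267, 274 and 287 in NIC-Carm1, and 125 and 122 in NIC-Prmt6. Every NIC-Carm1 library was above every other library, and Kif20b rose there by 1.01 ± 0.28 (SE; limma adjusted p = 0.0367) on the log2 scale. Kif11, the kinesin that pushes spindle poles apart, had 323 and 394 in NIC, 154, 391 and 149.8 in NIC-Prmt1, 623, 589.7 and 581 in NIC-Carm1, and 203 and 187 in NIC-Prmt6. The pattern was the common one, and no comparison of Kif11 with NIC passed (adjusted p-values from limma of 0.113, 0.17 and 0.0956), while NIC-Carm1 exceeded NIC-Prmt6 by 1.61 ± 0.34 (SE; limma adjusted p = 0.00551). The kinesin genes Kif2c and Kif4 were uncalled against NIC as well.

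No cytokinesis gene (6) was called against NIC in any group. Racgap1, which with Kif23 forms the centralspindlin complex of the midzone, had 593 and 622 in NIC, 283, 671 and 399 in NIC-Prmt1, 965, 856 and 859 in NIC-Carm1, and 335 and 409 in NIC-Prmt6. Replicate 2 of NIC-Prmt1 was above NIC, and the log2 fold changes were -0.52 ± 0.28 (SE; limma adjusted p = 0.183), 0.55 ± 0.28 (SE; limma adjusted p = 0.206) and -0.71 ± 0.31 (SE; limma adjusted p = 0.094) in NIC-Prmt1, NIC-Carm1 and NIC-Prmt6. Anln, the scaffold anillin of the contractile ring, varied less, at 535 and 545 in NIC, 324, 585 and 303 in NIC-Prmt1, 624, 657 and 679 in NIC-Carm1, and 347 and 379 in NIC-Prmt6. NIC-Carm1 was again highest, and NIC-Prmt6 with NIC-Prmt1 replicates 1 and 3 lowest. Ect2, the exchange factor that switches on RhoA at the cleavage site, and Prc1, which bundles midzone microtubules, came nearest to the threshold in NIC-Prmt1 (-0.64 ± 0.30 SE, limma adjusted p = 0.13) and in NIC-Prmt6 (-0.90 ± 0.36 SE, limma adjusted p = 0.0784). Kif20a, a midzone kinesin, was at 0.92 ± 0.37 (SE; limma adjusted p = 0.117) in NIC-Carm1, and its exons overlap those of Cdc23. Kif23 was 1 of 4 genes not called between NIC-Carm1 and NIC-Prmt6.

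Among chromosome structure genes (6), 2 fell in NIC-Prmt1, 2 in NIC-Prmt6 and 1 rose in NIC-Carm1. Mki67, which encodes the proliferation marker Ki-67 that coats mitotic chromosomes, had 2669 and 2726 in NIC, 807, 2542 and 1019 in NIC-Prmt1, 4277, 4095 and 4025 in NIC-Carm1, and 1523 and 1413 in NIC-Prmt6. NIC-Prmt1 lay wholly below NIC, although replicate 2 was close to it, and the call in NIC-Prmt1, at -1.08 ± 0.36 (SE; limma adjusted p = 0.0495), was near the threshold. In NIC-Prmt6 Mki67 was at -0.88 ± 0.40 (SE; limma adjusted p = 0.111) and in NIC-Carm1 at 0.61 ± 0.36 (SE; limma adjusted p = 0.282). Top2a, the topoisomerase that untangles chromosomes, had 1158 and 1355 in NIC, 522, 1344 and 623 in NIC-Prmt1, 2032, 1980 and 2142 in NIC-Carm1, and 667 and 752 in NIC-Prmt6. It was not called against NIC (adjusted p-values from limma of 0.105, 0.149 and 0.0849) and was higher in NIC-Carm1 than in NIC-Prmt6 by 1.53 ± 0.31 (SE; limma adjusted p = 0.00447).

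The condensin genes did not all go alike. Ncapg, a subunit of condensin I, had 198 and 219.7 in NIC, 52, 144 and 98.2 in NIC-Prmt1, 255, 248 and 285 in NIC-Carm1, and 80.6 and 67.1 in NIC-Prmt6. It fell in NIC-Prmt1, at -1.20 ± 0.34 (SE; limma adjusted p = 0.0259), and in NIC-Prmt6, at -1.49 ± 0.37 (SE; limma adjusted p = 0.0119), and its exons overlap those of Lcorl. Ncapd2, of the same complex, fell in NIC-Prmt6 at -0.90 ± 0.24 (SE; limma adjusted p = 0.0158). Smc2, a core subunit of both condensins, was at 468 and 430.4 in NIC, 429, 527 and 359 in NIC-Prmt1, 709, 748 and 701 in NIC-Carm1, and 331 and 392 in NIC-Prmt6. It rose in NIC-Carm1, at 0.68 ± 0.16 (SE; limma adjusted p = 0.0198), and was at -0.05 ± 0.16 (SE; limma adjusted p = 0.826) in NIC-Prmt1 and -0.31 ± 0.17 (SE; limma adjusted p = 0.179) in NIC-Prmt6. Smc4, its partner, stayed between 938 and 1517 in all libraries. Whether these subunits differ from each other in their response was not tested.

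Foxm1, a transcription factor for many of these genes, had 499 and 531 in NIC, 268, 411 and 275 in NIC-Prmt1, 649.9, 507 and 595 in NIC-Carm1, and 362 and 385 in NIC-Prmt6. NIC and NIC-Carm1 overlapped, and the low groups were below both. It fell in NIC-Prmt1, at -0.72 ± 0.19 (SE; limma adjusted p = 0.0187), and was at -0.46 ± 0.21 (SE; limma adjusted p = 0.105) in NIC-Prmt6 and 0.17 ± 0.19 (SE; limma adjusted p = 0.565) in NIC-Carm1. Over the 21 alternatives the adjusted p in NIC-Prmt1 rose to at most 0.1. Its exons overlap those of the same-strand gene Tex52.

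Other genes of the pathway, chosen by function, were read beside the 44. Of 113 further mitosis genes tested, 6 were higher and 15 lower in NIC-Prmt1 than in NIC, 9 higher and 2 lower in NIC-Carm1, and 6 higher and 20 lower in NIC-Prmt6. Their median log2 fold changes were -0.39, 0.29 and -0.35. Between NIC-Prmt1 and NIC-Carm1, 54 were lower in NIC-Prmt1 and 1 higher (48.7% called, beside 26.8% of all genes tested). Between NIC-Carm1 and NIC-Prmt6, 54 were higher in NIC-Carm1 and 2 lower (49.6% called, beside 39.2%). None was called between NIC-Prmt1 and NIC-Prmt6, beside 7.49% of all genes. In that comparison 10 had an unadjusted p below 0.05, beside 4019 of all 15694 genes. Called in either direction were 18.6%, 9.73% and 23% of this list in those 3 comparisons with NIC, where 29.6%, 16% and 36.8% of all genes tested were called. Of the 42 genes of DNA replication, 12 were lower and 1 higher in NIC-Prmt1, 11 higher and 1 lower in NIC-Carm1, and 14 lower and 2 higher in NIC-Prmt6, with medians of -0.30, 0.34 and -0.33. The shares called in either direction were 31%, 28.6% and 38.1%, in NIC-Prmt1 and NIC-Prmt6 close to those of all genes. By direction they were not, as 14.4% of all genes were called lower in NIC-Prmt1 and 17.8% in NIC-Prmt6. Between NIC-Prmt1 and NIC-Carm1, 31 replication genes were lower in NIC-Prmt1 and none higher (73.8% called, beside 26.8% of all genes). Between NIC-Carm1 and NIC-Prmt6, 30 were higher in NIC-Carm1 and 1 lower (73.8% called, beside 39.2%). Mcm7, a subunit of the replicative helicase, had 1350 and 1234 in NIC, 901, 977 and 968 in NIC-Prmt1, 1240, 1384 and 1411 in NIC-Carm1, and 816 and 766 in NIC-Prmt6, and fell in NIC-Prmt6 at -0.71 ± 0.11 (SE; limma adjusted p = 0.00112). Rfc4, a clamp loader subunit, fell there at -0.95 ± 0.19 (SE; limma adjusted p = 0.00415), and Dnmt1, the maintenance DNA methyltransferase, fell in NIC-Prmt1 at -0.56 ± 0.10 (SE; limma adjusted p = 0.00444).

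**Figure D4:**
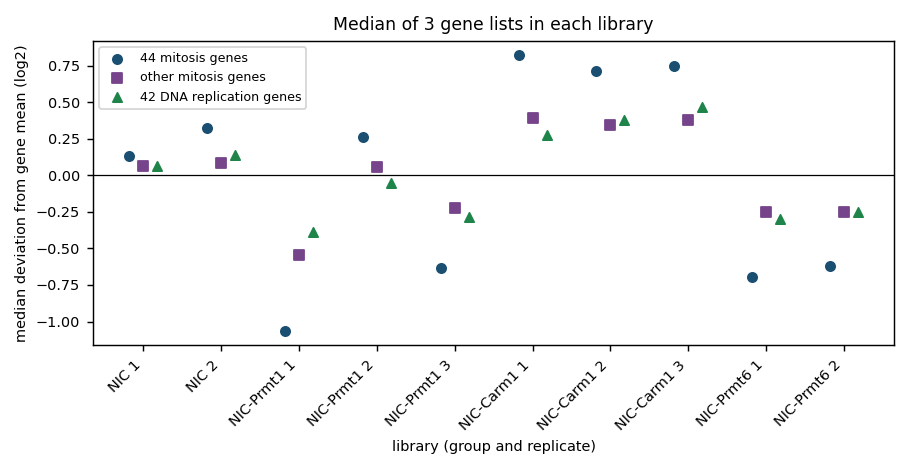
Median deviation from the gene mean (log2) of the 44 mitosis genes, 113 further mitosis genes and 42 DNA replication genes in each library. The mitosis genes run from -1.07 in NIC-Prmt1 replicate 1 to 0.83 in NIC-Carm1 replicate 1, and the replication genes follow over a narrower range, from -0.39 to 0.47.

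Within the further mitosis genes, those of the centromere and kinetochore (33 tested) had 5 lower and 1 higher in NIC-Prmt1, 3 higher in NIC-Carm1 and 4 lower and 1 higher in NIC-Prmt6. The shares called were 18.2%, 9.09% and 15.2%. For this list and those below, the shares of all genes tested were 29.6%, 16% and 36.8%. Cdca8, which encodes borealin of the passenger complex, fell in NIC-Prmt1, at -1.10 ± 0.36 (SE; limma adjusted p = 0.0435), and in NIC-Prmt6, at -1.37 ± 0.40 (SE; limma adjusted p = 0.0219). Ska1, which helps kinetochores hold microtubule ends, fell in NIC-Prmt6 at -1.67 ± 0.43 (SE; limma adjusted p = 0.0132). Cenpl, of the inner kinetochore, went the other way and rose in all 3 groups, at 0.78 ± 0.18 (SE; limma adjusted p = 0.0105), 0.86 ± 0.18 (SE; limma adjusted p = 0.0122) and 0.74 ± 0.19 (SE; limma adjusted p = 0.0151). Among cohesin and its regulators (14), Cdca5, which encodes sororin, fell in NIC-Prmt6 (-0.93 ± 0.23 SE, limma adjusted p = 0.0115) and Sgol1, shugoshin, in NIC-Prmt1 (-0.93 ± 0.29 SE, limma adjusted p = 0.0351). Pds5b, a cohesin cofactor, rose in NIC-Prmt6 (0.63 ± 0.15 SE, limma adjusted p = 0.0109).

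Spindle and centrosome genes (25) had 5 lower in NIC-Prmt6, 1 lower and 1 higher in NIC-Prmt1 and 2 higher in NIC-Carm1. These shares of 20%, 8% and 8% were below those of all genes tested (36.8%, 29.6% and 16%). Stil, needed to build centrioles, had 209 and 203 in NIC, 56.2, 99.4 and 52.7 in NIC-Prmt1, 225, 146 and 156 in NIC-Carm1, and 97.8 and 67.1 in NIC-Prmt6, and fell in NIC-Prmt1, at -1.61 ± 0.31 (SE; limma adjusted p = 0.00518), and in NIC-Prmt6, at -1.33 ± 0.34 (SE; limma adjusted p = 0.0126), with no overlap between these groups and NIC. Ckap2l fell in NIC-Prmt6, at -1.19 ± 0.33 (SE; limma adjusted p = 0.0179), and Gtse1 rose in NIC-Carm1, at 0.89 ± 0.22 (SE; limma adjusted p = 0.0234). Further cytokinesis genes (8) had 1 lower in NIC-Prmt1, Shcbp1 at -1.69 ± 0.49 (SE; limma adjusted p = 0.0279), and 1 lower in NIC-Prmt6, Depdc1a at -1.30 ± 0.38 (SE; limma adjusted p = 0.0221), and Iqgap3 was at -1.04 ± 0.39 (SE; limma adjusted p = 0.0653) in NIC-Prmt1. Of further condensin and chromatin genes (10), H2afz, a histone variant, was lower than NIC in all 3 groups, at -0.70 ± 0.11 (SE; limma adjusted p = 0.00191), -0.37 ± 0.11 (SE; limma adjusted p = 0.04) and -0.56 ± 0.12 (SE; limma adjusted p = 0.00508). Ncapd3, of condensin II, rose in NIC-Carm1 (0.56 ± 0.12 SE, limma adjusted p = 0.0162) and NIC-Prmt6 (0.39 ± 0.14 SE, limma adjusted p = 0.0458), and the cohesin gene Smc1a rose in NIC-Prmt6 (0.28 ± 0.09 SE, limma adjusted p = 0.0399).

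Subunits of the APC/C and regulators of CDK1 (26) had 5 lower and 3 higher in NIC-Prmt1, 3 higher and 1 lower in NIC-Carm1 and 8 lower and 2 higher in NIC-Prmt6. The shares called, 30.8%, 15.4% and 38.5%, were close to those of all genes tested (29.6%, 16% and 36.8%). Cdc23, an APC/C subunit whose exons overlap Kif20a, had 663 and 709 in NIC, 1103, 1040 and 1041 in NIC-Prmt1, 1125, 1034 and 1115 in NIC-Carm1, and 929 and 935 in NIC-Prmt6. All 8 PRMT libraries were above NIC, and Cdc23 rose in each group, at 0.63 ± 0.09 (SE; limma adjusted p = 0.00145), 0.67 ± 0.09 (SE; limma adjusted p = 0.00192) and 0.44 ± 0.10 (SE; limma adjusted p = 0.0064). Anapc1, a scaffold of the complex, rose in each group as well, by 0.43 ± 0.08, 0.46 ± 0.08 and 0.51 ± 0.09 (limma adjusted p = 0.00541, 0.00705 and 0.00254). Anapc13, a small subunit, fell in NIC-Prmt1, at -0.54 ± 0.16 (SE; limma adjusted p = 0.0293), and in NIC-Prmt6, at -0.83 ± 0.17 (SE; limma adjusted p = 0.00543).

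Genes for the transcription of the cell cycle (22: MuvB, MYB, E2F, pocket proteins and NF-Y) had 2 higher and 1 lower in NIC-Prmt1, 4 higher and 2 lower in NIC-Carm1, and 5 higher and 1 lower in NIC-Prmt6. The shares called were 13.6%, 27.3% and 27.3%, beside 29.6%, 16% and 36.8% of all genes tested. E2f7, a repressor of the E2F family, had 102 and 100.1 in NIC, 205, 179 and 206 in NIC-Prmt1, 132, 159 and 146 in NIC-Carm1, and 328 and 299 in NIC-Prmt6. It rose in all 3 groups, at 1.62 ± 0.17 (SE; limma adjusted p = 0.000198) in NIC-Prmt6, 0.95 ± 0.15 (SE; limma adjusted p = 0.00259) in NIC-Prmt1 and 0.52 ± 0.15 (SE; limma adjusted p = 0.0458) in NIC-Carm1, and its NIC-Prmt6 values were the highest of all libraries. Lin9, of the MuvB complex, was higher in all 3 groups, with 0.87 ± 0.15 (SE; limma adjusted p = 0.00556) in NIC-Carm1. Lin37, of the same complex, was lower in all 3, with -0.70 ± 0.14 (SE; limma adjusted p = 0.00576) in NIC-Prmt1. Of the CDK inhibitors (7), 1 was higher and 1 lower in NIC-Prmt1, 1 lower in NIC-Carm1 and 2 higher in NIC-Prmt6 (28.6%, 14.3% and 28.6% called). Cdkn1a, which encodes p21, had 9077 and 8651 in NIC, 5901, 5405 and 5598 in NIC-Prmt1, 2959, 3602 and 3336 in NIC-Carm1, and 7531 and 7478 in NIC-Prmt6. All NIC-Carm1 libraries were below all others, and Cdkn1a fell there by 1.43 ± 0.10 on the log2 scale (limma adjusted p = 0.000116) and was at -0.65 ± 0.10 (SE; limma adjusted p = 0.00186) in NIC-Prmt1. Cdkn1c, which encodes p57, had 336 and 295 in NIC, 482, 336 and 575 in NIC-Prmt1, 228, 229.5 and 258 in NIC-Carm1, and 744 and 725 in NIC-Prmt6, and rose in NIC-Prmt6 at 1.22 ± 0.22 (SE; limma adjusted p = 0.00253). Cdkn2d, which encodes p19 of the INK4 family, rose in NIC-Prmt6, at 0.84 ± 0.15 (SE; limma adjusted p = 0.00249), and in NIC-Prmt1, at 0.74 ± 0.14 (SE; limma adjusted p = 0.00434). These comparisons share the NIC libraries, so a rise or fall in more than 1 group is not independent.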

How the data were processed

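RNA-seq libraries of mouse mammary epithelial cells (10 libraries, 4 genotypes) were analysed from a table of normalised values. Per the submitters' processing notes, the authors used mm10, TopHat2 2.0.10, HTSeq 0.6.0 and DESeq 1.18.0; filters, gene annotation and strandedness of counting were not given in the sources used here. The deposited signal is a read count divided by a size factor per library: scaled by that factor, 100% of values came out whole to within 0.01, which gave back the reads. Overlapping exons and chromosomes were taken from GENCODE M21 (build GRCm38).

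In R 4.3.3, limma-trend (limma 3.58.1) was fitted to log2(value + 1) for 15694 genes that reached 10 in 2 or more libraries. The model had a mean for each of the 4 groups over all 10 libraries, which left 6 residual degrees of freedom. Benjamini-Hochberg adjustment ran over all genes, with a threshold of 0.05. A fold change on this scale understates the change of low genes. The fit was tested on simulated data for NIC-Prmt1 against NIC (15437 genes), with 4 false calls. Recovered were 4 of 50 genes raised 1.5-fold, 29 of 50 raised 2-fold and 49 of 50 raised 4-fold. For NIC-Carm1 against NIC, 2 of 50 genes raised 1.5-fold and 36 of 50 raised 2-fold were recovered, with 7 false calls. Whether these shares hold at the spread of the mitosis genes in NIC-Prmt1 (median coefficient of variation 51.2%) was not tested. The simulated libraries were independent of each other. Alternatives were edgeR 4.0.16 (quasi-likelihood) and DESeq2 1.42.0 on recovered reads, other pseudocounts, filters and scalings, a fit of the compared groups without the others, a replicate block, averaged libraries and each library left out. edgeR called 4538, 2456 and 5778 genes in NIC-Prmt1, NIC-Carm1 and NIC-Prmt6 against NIC, beside 4645, 2513 and 5778 by limma.

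The members and the gene lists were chosen with earlier results of these data known, so the counts give no independent support for a pattern. Named genes were, per role, the member with the highest mean and the smallest adjusted p in each comparison with NIC, any member that passed there, 11 core genes, the 4 smallest adjusted p-values between PRMT groups and the 3 of each further list; genes named for their range, level per kilobase or uncalled state were chosen after their values were seen. Intervals are not given, since no share of counts is reported for a single sample.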

Additional observations from a re-analysis of the deposited data

How the results depend on the processing

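No alternative reversed a called gene. The median of the 44 genes changed sign in NIC-Prmt1 against NIC-Prmt6, where no gene was called: it was 0.15, and ran from -0.22 without NIC-Prmt1 replicate 2 to 0.43 without replicate 1. Against NIC, the count of 10 mitosis genes in NIC-Prmt1 was 5 with edgeR, 1 in a fit of those 2 groups, 3 with a replicate block and 1 with nearly alike libraries averaged, and it ranged from 1 to 39 when a library was left out. The count of 3 in NIC-Carm1 was 5 with DESeq2, 19 in a fit of the 2 groups and 0 with averaging, and ranged from 0 to 19. The count of 14 in NIC-Prmt6 was 24 with DESeq2, 36 in a fit of the 2 groups and 1 with averaging, and ranged from 2 to 35. Between PRMT groups, 42 in NIC-Prmt1 against NIC-Carm1 became 16 with averaging and ranged from 27 to 43, 40 in NIC-Carm1 against NIC-Prmt6 became 3 and ranged from 21 to 42, and 0 in NIC-Prmt1 against NIC-Prmt6 ranged from 0 to 2. The share of all genes called moved as well. In NIC-Prmt1 it was 29.6% in the main fit, 28.9% with edgeR, 18.2% in the fit of the 2 groups and 23.8% with the block. In NIC-Carm1 it was 16%, then 20.5% with DESeq2 and 10.5% in the fit of the 2 groups. In NIC-Prmt6 it was 36.8%, then 39.7% and 47.4%. The cause of these moves was not tested, except that averaging and leaving out leave fewer libraries, and a lone library is then assumed to vary like the other groups. The medians of the 44 genes ran from -1.10 to -0.43 in NIC-Prmt1, 0.42 to 0.59 in NIC-Carm1 and -0.96 to -0.77 in NIC-Prmt6 against NIC. Over single genes and alternatives, 2503 values kept their side of the threshold, 380 lost it and 57 gained it. The replicate numbers did not pair the libraries: same-numbered pairs correlated at -0.13 to 0.10 (13 pairs) and others at -0.16 to 0.17 (24 pairs), and with the replicate block the counts were 3, 2 and 12 against NIC for NIC-Prmt1, NIC-Carm1 and NIC-Prmt6, and 40, 0 and 38 for NIC-Prmt1 against NIC-Carm1, NIC-Prmt1 against NIC-Prmt6 and NIC-Carm1 against NIC-Prmt6.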
